A study of Mus musculus with 10 samples.

Results

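The enzymes, carriers and regulators of mitochondrial and peroxisomal fatty acid oxidation were examined in RNA sequencing counts from mesenchymal mouse breast cancer cells. The set holds 43 genes, found by their NCBI gene identifiers among the 18103 identifiers of the deposited count table. All 43 had a row and all 43 had enough counts to be tested. Ucp3 passed the filter on low counts only through the rosiglitazone group. Abcd2 held at most 11 counts in any library outside that group. The rises of both there are given as values and not as tests. By main textbook location 24 were assigned to mitochondria and 11 to peroxisomes. The other 8 were placed outside both classes. They act in both organelles (Eci2, Ech1, Mlycd), activate fatty acids at several membranes (Acsl1, Acsl3, Acsl4, Acsl5) or are cytosolic (Acot1).

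The 10 libraries fall into 5 groups of 2, and all cells were harvested on day 7. Py2T-LT cells, long-term cultured Py2T breast cancer cells, gave 3 groups: controls, cells given a MEK inhibitor, and cells given that inhibitor combined with BMP2, a bone morphogenetic protein. MTΔECad cells, a mesenchymal breast cancer line named for its loss of E-cadherin, were sampled as controls and after rosiglitazone, a drug that activates the nuclear receptor PPARγ. The treatment protocol names as usual doses 2 µM for rosiglitazone, 200 ng/ml for BMP2 and 40 µM for PD98059, the MEK inhibitor, with DMSO in control medium, whereas the labels of the samples give no dose. That protocol adds rosiglitazone after BMP2, and the Py2T-LT labels name none, so whether the Py2T-LT medium held it is not known here. No group is labelled as given BMP2 alone, the labels name no agent for both lines, and each line is 1 cell line, so that the agent and the line cannot be told apart between them.

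Long-chain fatty acids are burnt in mitochondria after activation to acyl-CoA and transport by the carnitine shuttle, and each turn of the spiral shortens the chain and feeds electrons to the respiratory chain. Peroxisomes shorten very long and branched chains and pass the products on to mitochondria. Many genes of both pathways are targets of the peroxisome proliferator-activated receptors, which pair with a retinoid X receptor on DNA, and several rise when preadipocytes become adipocytes.

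Libraries held 14659987 to 17249199 counts, so that 1 count was worth at most 0.0696 CPM (counts scaled to a common library size, after TMM), and replicates correlated at 0.9928 to 0.9948 (Pearson, log2 CPM, across genes). The E-cadherin gene Cdh1 was at 36 and 31.7 CPM in untreated Py2T-LT cells and 2.58 and 2.25 CPM in untreated MTΔECad cells, and Vim, a mesenchymal filament gene, at 2756 to 5853 CPM in all libraries. Values below are CPM in replicate 1 and replicate 2 unless stated. Log2 fold changes are given ± SE (standard error), with the adjusted p of edgeR's quasi-likelihood test, and the words rose and fell are kept for p under 0.05. These are bulk libraries, in which fewer cells of a type and less RNA per cell cannot be told apart.

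The DNA element bound by these receptor pairs is described as AGGTCA, any 1 base, and AGGTCA again. It was searched on both strands of RefSeq promoters of GRCm38.p6, from 250 bases before to 50 bases after each start, allowing at most 2 letters off the named ones. Of the 43 genes, 36 had a promoter entry (38 promoters), and 4 of them held a match, all 4 mitochondrial (4 of 19 mitochondrial promoters, 21.1%) and none among 10 peroxisomal promoters. Over all 32851 promoters the share was 3.86%. With 1 letter off no member matched, against 0.554% of all promoters, so these are loose matches. The 100 bases before the start of Ucp3, Echs1 and Etfa are shown because they hold a match (capitals), the one in Etfa being read on the opposite strand. Those of Acaa1b, Pdk4 and Pex11a are shown as examples of genes that rose by at least 1 on the log2 scale in both treated lines without a match. Ehhadh and Acsl1 also did so and are not shown.
Ucp3 (chr7:100472891-100472990, plus strand): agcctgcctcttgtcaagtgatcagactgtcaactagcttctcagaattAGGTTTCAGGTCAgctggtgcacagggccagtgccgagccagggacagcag
Echs1 (chr7:140116422-140116521, minus strand): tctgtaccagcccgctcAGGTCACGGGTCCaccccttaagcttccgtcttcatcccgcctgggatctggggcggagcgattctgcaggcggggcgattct
Etfa (chr9:55512244-55512343, minus strand): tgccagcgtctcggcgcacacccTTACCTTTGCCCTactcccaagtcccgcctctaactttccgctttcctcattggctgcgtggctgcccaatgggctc
Acaa1b (chr9:119157094-119157193, minus strand): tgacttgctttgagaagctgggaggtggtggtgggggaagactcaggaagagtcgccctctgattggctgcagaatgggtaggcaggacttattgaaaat
Pdk4 (chr6:5496279-5496378, minus strand): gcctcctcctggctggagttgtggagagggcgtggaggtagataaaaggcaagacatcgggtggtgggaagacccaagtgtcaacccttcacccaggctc
Pex11a (chr7:79743132-79743231, minus strand): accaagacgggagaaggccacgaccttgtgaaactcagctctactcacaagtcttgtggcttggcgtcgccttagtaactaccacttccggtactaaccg
The match in Slc25a20, AGGTGAAAGGTCG, starts at base 7 after the start site (chr9:108662142-108662154). Such a match is a description of the letters and not of binding.

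Rosiglitazone raised most of the set in MTΔECad cells: 35 of 43 genes rose and 2 fell, where 13.2% of all 13149 genes tested were called (7.95% rose, 5.26% fell), and the median log2 fold change was 0.72 against -0.02 over all genes. Ucp3, tested only because of its level in that group, and Abcd2, with few counts in every other group, are among the 35. BMP2 plus MEK inhibitor raised 21 of 43 and lowered 2 in Py2T-LT cells (median 0.25 against 0.00), where 38.5% of all genes were called (19.1% rose, 19.4% fell). Against the MEK inhibitor alone the combination raised 18 and lowered 4 (median 0.19), with 37.3% of all genes called, 17.9% risen and 19.4% fallen. The MEK inhibitor raised 9 and lowered 2 (median 0.13), with 16.5% of all genes called, 8.98% risen and 7.52% fallen, and this count was the least stable: without Py2T-LT control replicate 2, 5 members passed in place of 11. In untreated MTΔECad against untreated Py2T-LT cells 31 members were higher and 2 lower (median 0.60), beside a background in which 61% of all genes differed (29.3% higher, 31.7% lower). Both Py2T-LT treatments share their controls, as the rosiglitazone and line comparisons share the MTΔECad controls, so their counts are not independent. Without MTΔECad control replicate 1, the genes called with rosiglitazone fell from 1737 to 1112 over the whole table, while the members called stayed between 32 and 37 whichever library was left out.

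**Figure D1:**
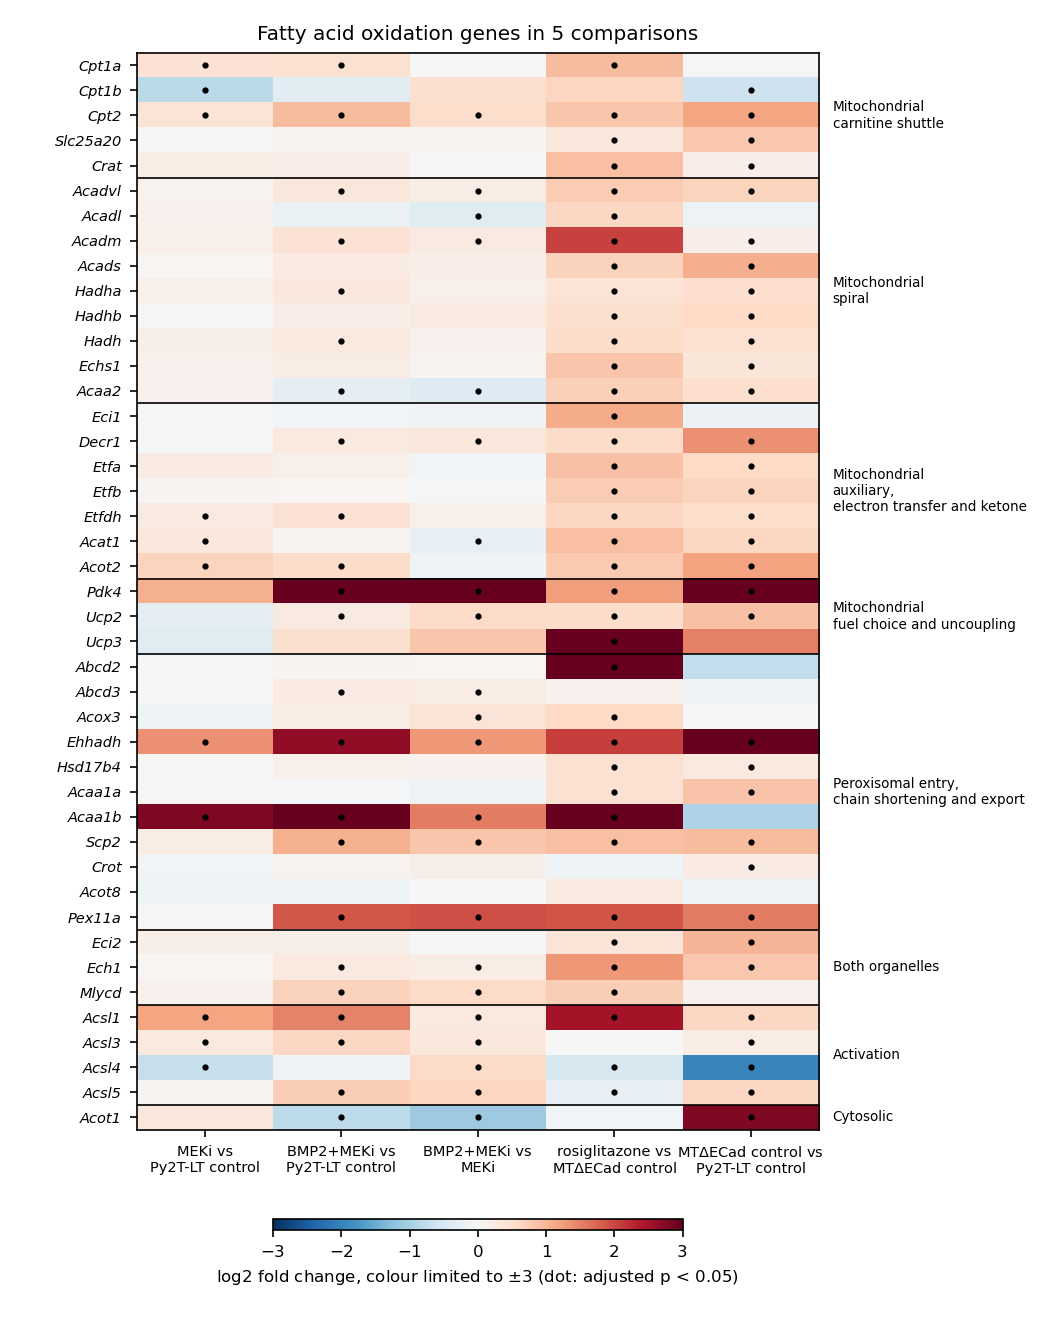
Log2 fold change (colour, limited to 3 either way) of the 43 genes in 5 comparisons, ordered by role, with a dot where the adjusted p was under 0.05. The rosiglitazone column has 37 dots, 35 of them on genes that rose, and the largest values in Py2T-LT cells lie at Acaa1b, Pdk4 and Ehhadh.

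The carnitine shuttle rose in part with every treatment. Cpt1a, the outer-membrane carnitine palmitoyltransferase that controls entry of long chains, stood at 93.9 and 94 in Py2T-LT controls, 129 and 126 with the MEK inhibitor, 130 and 129 with BMP2 plus MEK inhibitor, 92.6 and 87.5 in MTΔECad controls and 180 and 169 with rosiglitazone. Both Py2T-LT treatments lie above both controls, and rosiglitazone lies above everything else. The log2 fold changes were 0.44 ± 0.07 with the MEK inhibitor (adjusted p = 1.9e-04), 0.46 ± 0.07 with the combination (adjusted p = 3.1e-05) and 0.96 ± 0.07 with rosiglitazone (adjusted p = 4.2e-09). Adding BMP2 to the inhibitor gave 0.02 ± 0.07 (adjusted p = 0.84).

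Cpt2, the inner-membrane enzyme that returns the chain to CoA, stood at 10.7 and 10.6 in Py2T-LT controls, 15.2 and 13.2 with the MEK inhibitor, 20 and 20.8 with the combination, 26 and 22.5 in MTΔECad controls and 44.5 and 41.9 with rosiglitazone. No 2 groups overlap. It rose by 0.94 ± 0.12 with the combination (adjusted p = 3.0e-06) and by 0.84 ± 0.11 with rosiglitazone (adjusted p = 1.1e-05). Its rise of 0.41 ± 0.13 with the MEK inhibitor (adjusted p = 0.031) was lost without MEK inhibitor replicate 1 or without either control, with adjusted p up to 0.24.

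Of the other shuttle genes, Crat, the carnitine acetyltransferase, rose with rosiglitazone by 0.91 ± 0.09 (adjusted p = 9.4e-08), from 94.8 and 96.5 to 192 and 169. Slc25a20, the carrier that moves acylcarnitines across the inner membrane, was at the threshold there (0.35 ± 0.12, adjusted p = 0.05), and 9 of 15 alternatives lost the call. Cpt1b, the muscle form of the entry enzyme, was scarce, at 1.81 to 3.67 in all libraries. Per kilobase of exon Cpt1a stood at 21.8 and Cpt1b at 1.22 RPKM (CPM per kilobase) in Py2T-LT controls, and 81.4% of the exon bases of Cpt1b are shared with the annotated transcript Gm44502 on the same strand. The fall of Cpt1b with the MEK inhibitor (-0.81 ± 0.24, adjusted p = 0.024) was lost when any of the 4 libraries compared was left out, with adjusted p up to 0.16.

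All 9 genes of the mitochondrial spiral rose with rosiglitazone, by 0.42 to 2.05 on the log2 scale. Acadm, the medium-chain acyl-CoA dehydrogenase, moved most. It stood at 114 and 107 in Py2T-LT controls, 127 and 119 with the MEK inhibitor, 154 and 144 with the combination, 124 and 129 in MTΔECad controls and 530 and 520 with rosiglitazone. The rosiglitazone libraries lie far above all others, and MTΔECad controls overlap the MEK inhibitor group. Its log2 fold change was 2.05 ± 0.08 with rosiglitazone (4.15-fold, adjusted p = 2.3e-14) and 0.43 ± 0.07 with the combination (adjusted p = 7.8e-05). At 257 RPKM Acadm was the most abundant of the 43 genes per kilobase in rosiglitazone-treated cells, whereas Acsl4 was the most abundant in Py2T-LT controls at 363 RPKM.

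Hadha, the alpha subunit of the trifunctional protein of long-chain oxidation, stood at 152 and 152 in Py2T-LT controls, 177 and 161 with the MEK inhibitor, 188 and 187 with the combination, 209 and 220 in MTΔECad controls and 294 and 280 with rosiglitazone. The groups follow each other without overlap. It rose by 0.31 ± 0.07 with the combination (adjusted p = 0.0022) and by 0.42 ± 0.07 with rosiglitazone (adjusted p = 3.2e-04), the smallest rise among the 9. Hadhb, the beta subunit, was listed at 5.65 RPKM in Py2T-LT controls where Hadha was at 37.8 RPKM. Of the 50-base stretches in Hadhb transcripts 19.7% also occur in other genes, among them the pseudogenes Gm13910 and Gm9108, and how such reads were counted is not given in the sources used here.

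Acads, the short-chain dehydrogenase, separated the lines. It stood at 28.4 and 31.2 in Py2T-LT controls, 33.2 and 29.1 with the MEK inhibitor, 33 and 37.7 with the combination, 63.8 and 64 in MTΔECad controls and 111 and 95.7 with rosiglitazone. The MEK inhibitor libraries overlap those of the Py2T-LT controls, and both MTΔECad groups lie above all Py2T-LT libraries. It was higher in untreated MTΔECad cells by 1.10 ± 0.10 (adjusted p = 9.0e-09) and rose by 0.69 ± 0.10 with rosiglitazone (adjusted p = 2.3e-05).

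The other 6 spiral genes, Acadvl, Acadl, Hadhb, Hadh, Echs1 and Acaa2, rose with rosiglitazone by 0.49 to 0.84. Hadhb lost that call without rosiglitazone replicate 2 or MTΔECad control replicate 1 (adjusted p up to 0.14). With BMP2 plus MEK inhibitor 4 of the 9 spiral genes rose, by 0.29 to 0.43 (Acadvl, Acadm, Hadha, Hadh), beside 19.1% of all genes. Acaa2, the mitochondrial thiolase of the last step, fell by 0.26 ± 0.08 (adjusted p = 0.014). That fall was lost without combination replicate 2 or control replicate 1, and the rise of Hadh without control replicate 2 (adjusted p up to 0.083 and 0.088). Against the MEK inhibitor alone, Acaa2 (-0.39 ± 0.08, adjusted p = 5.7e-04) and the long-chain dehydrogenase Acadl (-0.36 ± 0.10, adjusted p = 0.0079) fell, the latter not without combination replicate 2 or MEK inhibitor replicate 2 (adjusted p up to 0.12). With the MEK inhibitor the 9 genes ranged from -0.06 to 0.17.

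The 7 auxiliary, electron transfer and ketone genes all rose with rosiglitazone, by 0.55 to 1.12. Eci1, an isomerase that moves double bonds of unsaturated chains, stood at 51.7 and 48.2 in Py2T-LT controls, 51.6 and 49.4 with the MEK inhibitor, 45.5 and 48.8 with the combination, 42.8 and 45.1 in MTΔECad controls and 99.2 and 92.4 with rosiglitazone. Only the rosiglitazone libraries stand apart. It rose there by 1.12 ± 0.09 (adjusted p = 4.0e-09), against -0.08 ± 0.09 with the combination in Py2T-LT cells (adjusted p = 0.49).

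Decr1, the mitochondrial dienoyl-CoA reductase, stood at 26.5 and 28.9 in Py2T-LT controls, 27.6 and 26.3 with the MEK inhibitor, 35 and 32.7 with the combination, 71.5 and 72.5 in MTΔECad controls and 107 and 104 with rosiglitazone. Its main step is between the lines, 1.38 ± 0.09 (adjusted p = 2.1e-11), with a rise of 0.55 ± 0.08 by rosiglitazone (adjusted p = 5.1e-05). The rise of 0.29 ± 0.09 with the combination (adjusted p = 0.016) was lost without combination replicate 1 or control replicate 1, with adjusted p up to 0.14.

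Acot2, a mitochondrial acyl-CoA thioesterase, stood at 5.98 and 5.31 in Py2T-LT controls, 7.82 and 9.91 with the MEK inhibitor, 6.43 and 9.83 with the combination, 13.1 and 13 in MTΔECad controls and 22.9 and 21.9 with rosiglitazone. Both treated Py2T-LT groups overlap each other and lie above their controls. It rose by 0.78 ± 0.16 with rosiglitazone (adjusted p = 0.0012) and was 1.20 ± 0.18 higher in untreated MTΔECad cells (adjusted p = 7.4e-06). With the combination its 0.54 ± 0.19 (adjusted p = 0.03) became 0.19 without combination replicate 2, and the call was also lost without control replicate 2 (adjusted p up to 0.54). The electron transfer chain of the pathway, Etfa, Etfb and Etfdh, which hands electrons to ubiquinone, rose with rosiglitazone by 0.62 to 0.87. Of the exon bases of Etfb 58.2% are overlapped on the same strand by Gm45233 and Mir7051, and 44.8% of its 50-base stretches are shared with them. Acat1, the mitochondrial acetoacetyl-CoA thiolase, rose with rosiglitazone by 0.90 ± 0.08 (adjusted p = 1.7e-08).

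Pdk4 and Ucp3, which set fuel choice and uncouple respiration, had the widest ranges of the mitochondrial class. Pdk4, the kinase that shuts off pyruvate dehydrogenase when fat is burnt, stood at 0.185 and 0.0625 in Py2T-LT controls, 0.258 and 0.274 with the MEK inhibitor, 3.62 and 4.59 with the combination, 19.1 and 24 in MTΔECad controls and 48.5 and 54.6 with rosiglitazone. The Py2T-LT controls held 4 counts of Pdk4 in all and the MEK inhibitor group 9. The combination held 133 counts, a ratio of 33 to the controls (95% counting interval 12.6 to 123) and of 15 to the MEK inhibitor group (7.65 to 33.5), with adjusted p = 3.5e-09 and 1.1e-08. The step from the controls to the MEK inhibitor was a ratio of 2.21 (0.615 to 9.8, adjusted p = 0.42), not detectable at this depth.

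Untreated MTΔECad cells already held 658 counts of Pdk4, 160 times the Py2T-LT controls per total count (62.2 to 589), and rosiglitazone added 1.25 ± 0.13 on the log2 scale (adjusted p = 3.4e-07). Ucp3, the uncoupling protein known from muscle, stood at 0.123 and 0.187 in Py2T-LT controls, 0.129 and 0.11 with the MEK inhibitor, 0.402 and 0.0581 with the combination, 0.418 and 0.501 in MTΔECad controls and 6.1 and 4.47 with rosiglitazone. All groups but rosiglitazone lie near the worth of a few counts. The fitted log2 fold change there, 3.50 ± 0.39, is a description, since the filter kept Ucp3 only for that group. Ucp2 rose with rosiglitazone by 0.55 ± 0.10 (adjusted p = 5.1e-04).

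The peroxisomal genes moved unequally: a few changed several-fold and others not measurably. Acaa1b, a peroxisomal thiolase of the mouse, stood at 3.2 and 3.44 in Py2T-LT controls, 30.1 and 16.6 with the MEK inhibitor, 63.5 and 71.1 with the combination, 1.81 and 1.69 in MTΔECad controls and 56.5 and 52.9 with rosiglitazone. It is low in both control groups and high in all 6 treated libraries, with the MEK inhibitor in between. The rise was 2.80 ± 0.30 with the MEK inhibitor (6.97-fold, adjusted p = 2.2e-04), 4.34 ± 0.28 with the combination (20.2-fold, adjusted p = 2.0e-06) and 4.96 ± 0.32 with rosiglitazone (31.2-fold, adjusted p = 7.4e-06). Of its 50-base stretches 30.5% also occur in the sister gene Acaa1a, which stood at 21.9 to 29.1 in the 6 Py2T-LT libraries and rose with rosiglitazone by 0.45 ± 0.12 (adjusted p = 0.01), a call lost without rosiglitazone replicate 1 or either MTΔECad control (adjusted p up to 0.14).

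Ehhadh, the peroxisomal bifunctional hydratase and dehydrogenase, stood at 1.6 and 1.37 in Py2T-LT controls, 4.85 and 2.96 with the MEK inhibitor, 10.1 and 8.84 with the combination, 11.6 and 14.3 in MTΔECad controls and 54.4 and 54.4 with rosiglitazone. It climbed through the groups without overlap. The log2 fold changes were 1.36 ± 0.26 with the MEK inhibitor (adjusted p = 7.8e-04), 2.66 ± 0.23 with the combination (adjusted p = 6.0e-09) and 2.07 ± 0.14 with rosiglitazone (adjusted p = 8.8e-10), and BMP2 on top of the inhibitor added 1.30 ± 0.19 (adjusted p = 1.3e-05). The lines differed by 3.12 ± 0.22 (adjusted p = 1.0e-10). Hsd17b4, the other peroxisomal bifunctional enzyme, rose only by 0.46 ± 0.08 with rosiglitazone (adjusted p = 1.7e-04) and gave 0.16 ± 0.08 with the combination (adjusted p = 0.12).

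Pex11a, which promotes the division of peroxisomes, stood at 1.85 and 1.06 in Py2T-LT controls, 1.49 and 1.31 with the MEK inhibitor, 5.42 and 5.23 with the combination, 4.59 and 4.01 in MTΔECad controls and 15.5 and 16.2 with rosiglitazone. The MEK inhibitor libraries lie within the range of the controls, unlike those of Acaa1b and Ehhadh. It rose by 1.86 ± 0.24 with the combination (adjusted p = 2.4e-06), by 1.93 ± 0.24 when BMP2 was added to the inhibitor (adjusted p = 1.6e-06) and by 1.88 ± 0.18 with rosiglitazone (adjusted p = 1.3e-07). Scp2, the sterol carrier protein whose long form is a thiolase for branched chains, stood at 44.7 and 42.8 in Py2T-LT controls, 55.6 and 47.3 with the MEK inhibitor, 96.2 and 87.4 with the combination, 81.8 and 86.5 in MTΔECad controls and 150 and 167 with rosiglitazone. It rose by 1.07 ± 0.09 with the combination (adjusted p = 6.6e-09) and by 0.91 ± 0.09 with rosiglitazone (adjusted p = 1.5e-07), and 29.7% of its 50-base stretches also occur in the pseudogene Scp2-ps2.

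Abcd2, a transporter that brings very long chains into peroxisomes, stood at 0.308 and 0.687 in Py2T-LT controls, 0.646 and 0.383 with the MEK inhibitor, 0.536 and 0.523 with the combination, 0.418 and 0.188 in MTΔECad controls and 3.48 and 4.13 with rosiglitazone. Only the rosiglitazone libraries lie above the rest. Counts went from 9 in the MTΔECad controls to 113, a ratio of 12.9 (95% counting interval 6.56 to 28.9). This ratio is a description, since every other group held few counts. Abcd3, the more abundant transporter, stood at 98.5 to 136 in all libraries and did not pass with rosiglitazone (0.13 ± 0.08, adjusted p = 0.34).

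Acox3, an acyl-CoA oxidase for branched chains, stood at 30.5 and 30.8 in Py2T-LT controls, 28 and 26.8 with the MEK inhibitor, 34 and 37.3 with the combination, 31.6 and 30 in MTΔECad controls and 49.1 and 44.4 with rosiglitazone. The control groups of both lines overlap. It rose by 0.60 ± 0.10 with rosiglitazone (adjusted p = 1.3e-04) and by 0.38 ± 0.10 from the MEK inhibitor to the combination (adjusted p = 0.0042), the latter lost without combination replicate 2 (adjusted p up to 0.056). Crot and Acot8, which prepare shortened chains for export, did not pass with any treatment, with log2 fold changes from -0.14 to 0.28.

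**Figure D2:**
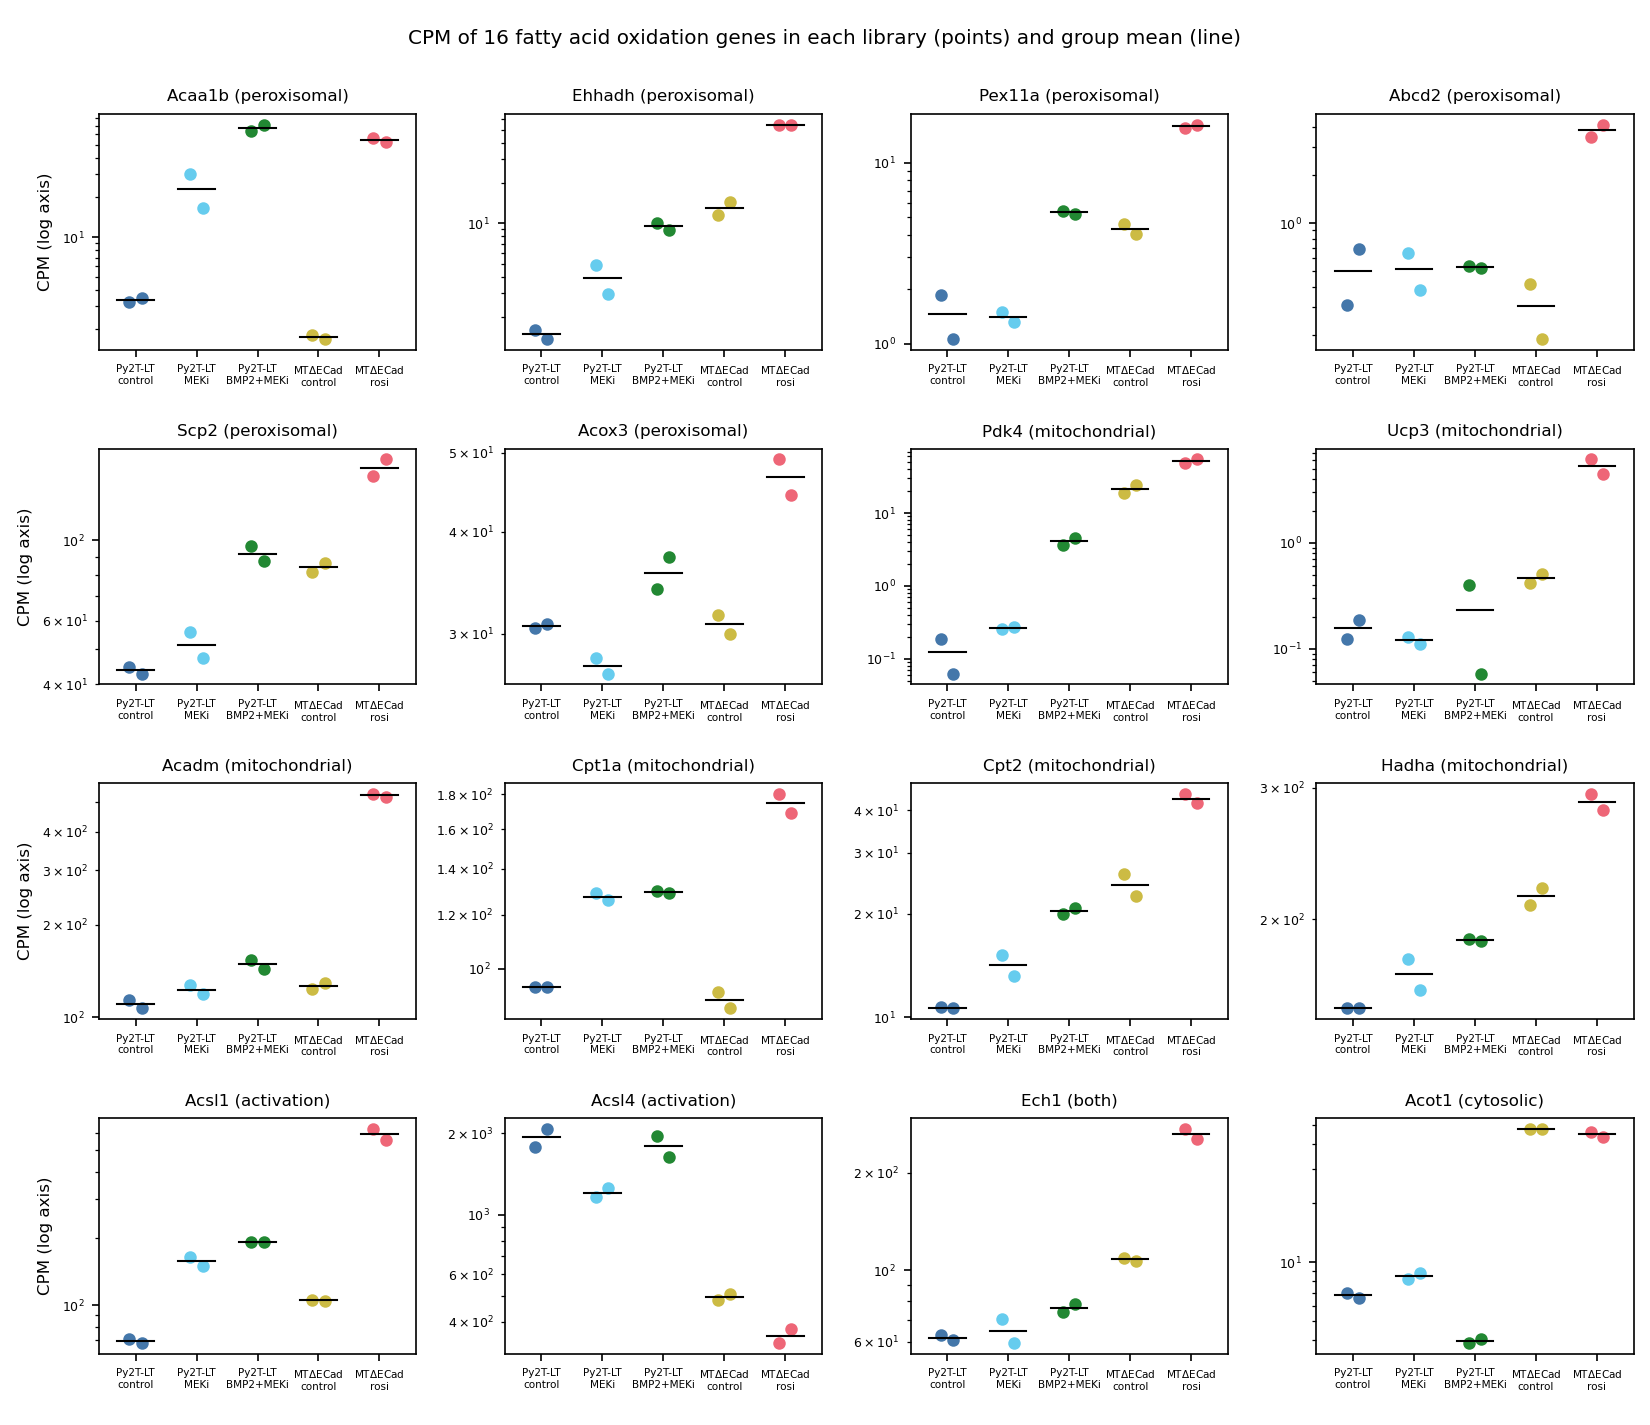
CPM on log axes of 16 of the 43 genes in each of the 10 libraries (points) with the mean of each group (line). Acaa1b and Ehhadh climb from the Py2T-LT control through the MEK inhibitor to the combination, Pex11a and Pdk4 are near the control level with the MEK inhibitor alone, and Acadm, Ucp3 and Abcd2 stand apart in the rosiglitazone libraries.

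Among the genes shared by both organelles, Ech1, a dienoyl-CoA isomerase, stood at 62.9 and 60.7 in Py2T-LT controls, 70.6 and 59.5 with the MEK inhibitor, 74 and 78.6 with the combination, 109 and 107 in MTΔECad controls and 274 and 255 with rosiglitazone. The MEK inhibitor libraries span the controls. It rose by 1.29 ± 0.08 with rosiglitazone (adjusted p = 2.4e-10) and by 0.30 ± 0.09 with the combination (adjusted p = 0.0082). That smaller rise was lost without combination replicate 2 or control replicate 2, with adjusted p up to 0.072.

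Eci2, an enoyl-CoA isomerase, stood at 41.3 and 38.5 in Py2T-LT controls, 48 and 42.1 with the MEK inhibitor, 45.6 and 45 with the combination, 76.8 and 83.3 in MTΔECad controls and 102 and 107 with rosiglitazone. It differed mainly between the lines (1.01 ± 0.09, adjusted p = 3.9e-09), and its rise of 0.38 ± 0.09 with rosiglitazone (adjusted p = 0.0034) was lost without MTΔECad control replicate 1 (adjusted p up to 0.077). Mlycd, which removes the malonyl-CoA that blocks Cpt1, rose by 0.70 ± 0.13 with the combination (adjusted p = 1.4e-04) and 0.74 ± 0.13 with rosiglitazone (adjusted p = 2.1e-04). Acacb, a gene of the other pathway lists below whose product makes malonyl-CoA, was also higher with both. It stood at 0 and 0.187 in Py2T-LT controls, near the worth of a few counts, and 1.21 and 1.05 with the combination. In MTΔECad cells it went from 4.32 and 4.07 to 10.4 and 11.6 with rosiglitazone. The block on Cpt1 itself was not tested.

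The 4 acyl-CoA synthetases, which activate fatty acids, split. Acsl1, the form that dominates in fat tissue, stood at 70.4 and 67.5 in Py2T-LT controls, 165 and 150 with the MEK inhibitor, 193 and 193 with the combination, 106 and 105 in MTΔECad controls and 625 and 559 with rosiglitazone. Every treated library lies above every control library. It rose by 1.19 ± 0.08 with the MEK inhibitor (adjusted p = 1.2e-09), 1.48 ± 0.08 with the combination (adjusted p = 4.0e-12) and 2.49 ± 0.08 with rosiglitazone (5.61-fold, adjusted p = 3.1e-15).

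Acsl4, a form that prefers arachidonic acid, ran the other way with the MEK inhibitor and with rosiglitazone. It stood at 1783 and 2080 in Py2T-LT controls, 1163 and 1250 with the MEK inhibitor, 1951 and 1631 with the combination, 481 and 507 in MTΔECad controls and 334 and 376 with rosiglitazone. It fell by 0.68 ± 0.09 with the MEK inhibitor (adjusted p = 2.7e-05) and by 0.48 ± 0.09 with rosiglitazone (adjusted p = 0.0012). From the MEK inhibitor to the combination it rose by 0.57 ± 0.09 (adjusted p = 5.9e-05). With the combination its libraries overlap the controls (-0.11 ± 0.09, adjusted p = 0.38), and the MTΔECad controls were lower than the Py2T-LT controls by 1.97 ± 0.10 on the log2 scale (adjusted p = 6.8e-13). Acsl3 and Acsl5 rose with the combination, by 0.63 ± 0.08 (adjusted p = 3.7e-06) and 0.73 ± 0.07 (adjusted p = 3.5e-08), while rosiglitazone gave -0.01 ± 0.09 for Acsl3 (adjusted p = 0.97). Acsl5 fell with rosiglitazone by 0.24 ± 0.07 (adjusted p = 0.024), a call lost when any of the 4 libraries was left out (adjusted p up to 0.18).

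Acot1, the cytosolic thioesterase next to Acot2 on chromosome 12, stood at 7.02 and 6.62 in Py2T-LT controls, 8.21 and 8.87 with the MEK inhibitor, 3.88 and 4.07 with the combination, 48 and 47.6 in MTΔECad controls and 46.4 and 43.6 with rosiglitazone. It is the single member that fell by at least 1 on the log2 scale within Py2T-LT cells, by 1.10 ± 0.15 from the MEK inhibitor to the combination (adjusted p = 3.4e-06) beside 6.78% of all genes that fell by as much, and it was higher in MTΔECad controls by 2.81 ± 0.12 (adjusted p = 1.7e-14). Rosiglitazone gave -0.09 ± 0.10 (adjusted p = 0.68). Acot1 shares 19.2% and Acot2 27.7% of their 50-base stretches with other genes of the family, so part of these reads may have been divided between them.

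Set side by side, the mitochondrial class moved broadly and by modest amounts with rosiglitazone, and the peroxisomal class moved in fewer genes with wider spread. With rosiglitazone 23 of 24 mitochondrial genes rose (95.8%, range 0.35 to 3.50, median 0.76) and 8 of 11 peroxisomal genes rose (72.7%, range -0.12 to 4.96, median 0.60), beside the 7.95% that rose among all genes. A rise of at least 1 was seen in 4 of 24 and 4 of 11, beside 2.67% of all genes. Ucp3, tested only because of its level with rosiglitazone, is in the former count. Abcd2, with few counts in every group but rosiglitazone, is in the latter. With BMP2 plus MEK inhibitor 11 of 24 mitochondrial genes rose, 1 of them (Pdk4) by at least 1. Of 11 peroxisomal genes 5 rose, 4 of them (Acaa1b, Ehhadh, Pex11a, Scp2) by at least 1. Among all genes 19.1% rose, and 6.47% rose by at least 1. The class medians there were 0.27 and 0.22. With the MEK inhibitor alone 5 of 24 mitochondrial genes rose and 1 fell, none of them moving by 1. Beside them 8.98% of all genes rose and 7.52% fell. Of 11 peroxisomal genes 2, Acaa1b and Ehhadh, rose, both by at least 1, beside 2.52% of all genes that rose by as much.

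From the MEK inhibitor to the combination 6 mitochondrial genes rose and 3 fell, and 6 of 11 peroxisomal genes rose, beside 17.9% risen and 19.4% fallen over all genes, with medians of 0.14 and 0.22. Of these 1 mitochondrial gene (Pdk4) and 3 peroxisomal genes (Acaa1b, Ehhadh, Pex11a) rose by at least 1, beside 5.08% of all genes. The peroxisomal median was 0.41 without MEK inhibitor replicate 1. Between the untreated lines the medians were 0.60 and 0.24, with 19 of 24 and 6 of 11 genes higher in MTΔECad cells. Of these, 5 and 2 were higher by at least 1. Among all genes 29.3% were higher, and 11.3% were higher by at least 1. The peroxisomal median became 0.61 when Eci2, Ech1, Mlycd, Acot1, Acsl1 and Acsl5 were counted as peroxisomal. These counts and medians describe the classes, and the difference between the classes was not tested.

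Summed over its 24 genes, the mitochondrial class stood at 565 and 591 RPKM in the Py2T-LT control libraries, 624 and 658 with the MEK inhibitor, 666 and 669 with the combination, 809 and 824 in MTΔECad controls and 1488 and 1534 with rosiglitazone. The summed peroxisomal class stood at 154 and 167 RPKM in the Py2T-LT controls, 168 and 183 with the MEK inhibitor, 232 and 236 with the combination, 201 and 212 in MTΔECad controls and 324 and 325 with rosiglitazone. The order of groups differs: the combination lies above the MTΔECad controls for peroxisomes and below them for mitochondria. By mean CPM all 24 mitochondrial and 8 of 11 peroxisomal genes were highest with rosiglitazone. The exceptions were Abcd3 and Acaa1b, highest with the combination, and Crot, highest in MTΔECad controls.

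**Figure D3:**
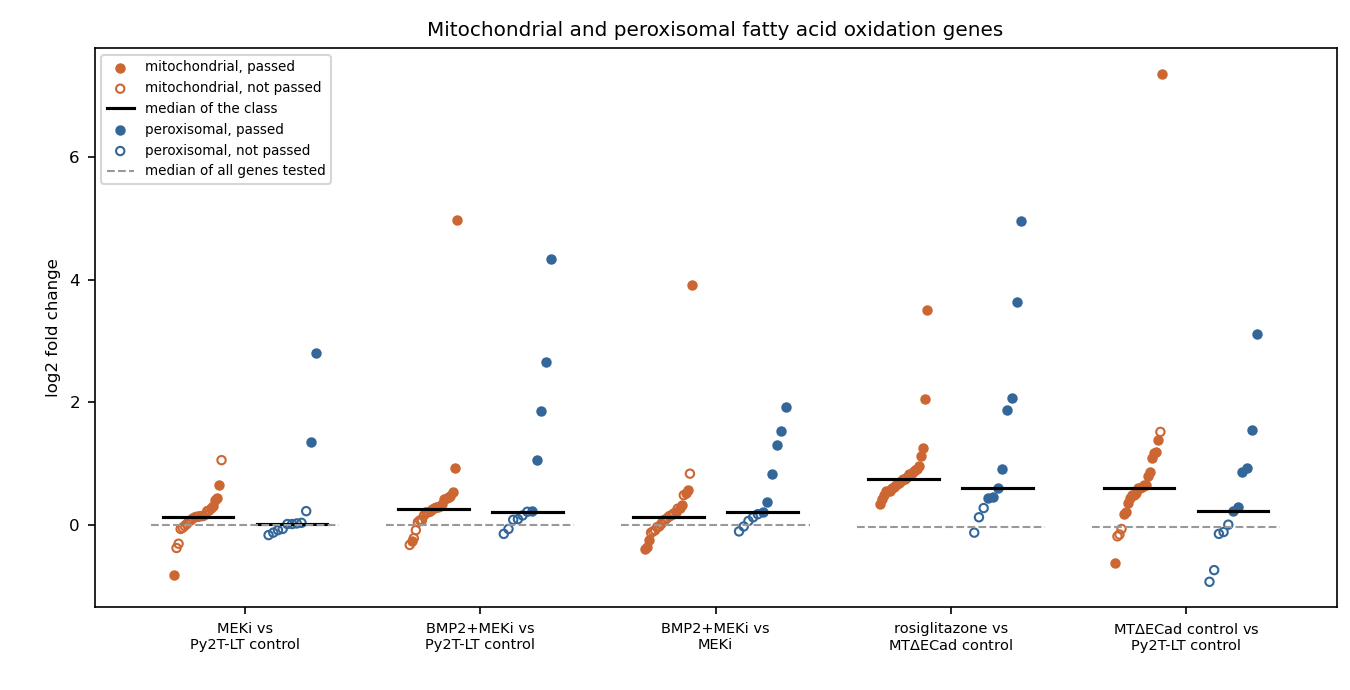
Log2 fold change of each of the 24 mitochondrial and 11 peroxisomal genes in 5 comparisons, filled where the adjusted p was under 0.05, with the class median (black) and the median of all 13149 genes tested (dashed). In the rosiglitazone comparison the mitochondrial genes lie between 0.35 and 3.50 and the peroxisomal genes between -0.12 and 4.96.

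Whether rosiglitazone in MTΔECad cells acted as BMP2 plus MEK inhibitor did in Py2T-LT cells was tested as the difference of the log2 fold changes. The difference passed for 24 of 43, 20 of them with the higher value for rosiglitazone (13 mitochondrial, 4 peroxisomal) and 4 with the higher value for the combination, where 24.8% of all genes passed (13.3% higher for rosiglitazone, 11.6% for the combination). Acadm differed by 1.62 ± 0.10 (adjusted p = 2.3e-10), Eci1 by 1.21 ± 0.12 (adjusted p = 1.9e-07), Ech1 by 0.99 ± 0.12 (adjusted p = 2.1e-06) and Acsl1 by 1.01 ± 0.11 (adjusted p = 5.8e-07). Abcd2, with few counts in every group but rosiglitazone, is among the 4 peroxisomal genes. Its call was lost without Py2T-LT control replicate 2.

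The opposite direction held for Pdk4 (-3.72 ± 0.49, adjusted p = 6.1e-06), which starts from 4 counts in the Py2T-LT controls, and for the synthetases Acsl5 (-0.97 ± 0.10, adjusted p = 2.0e-07) and Acsl3 (-0.64 ± 0.12, adjusted p = 3.7e-04). The 4 peroxisomal genes that rose by at least 1 with the combination gave differences of 0.62 ± 0.50 for Acaa1b (adjusted p = 0.44), -0.59 ± 0.29 for Ehhadh (adjusted p = 0.15), 0.02 ± 0.39 for Pex11a (adjusted p = 1) and -0.16 ± 0.13 for Scp2 (adjusted p = 0.42). These standard errors leave room for differences of some size, and a p above the threshold does not show that the effects were alike. The calls of Acox3, Hsd17b4, Acaa1a, Cpt1b, Acads and Acsl4 in this contrast were lost in 6 to 12 of 15 alternatives.

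**Figure D4:**
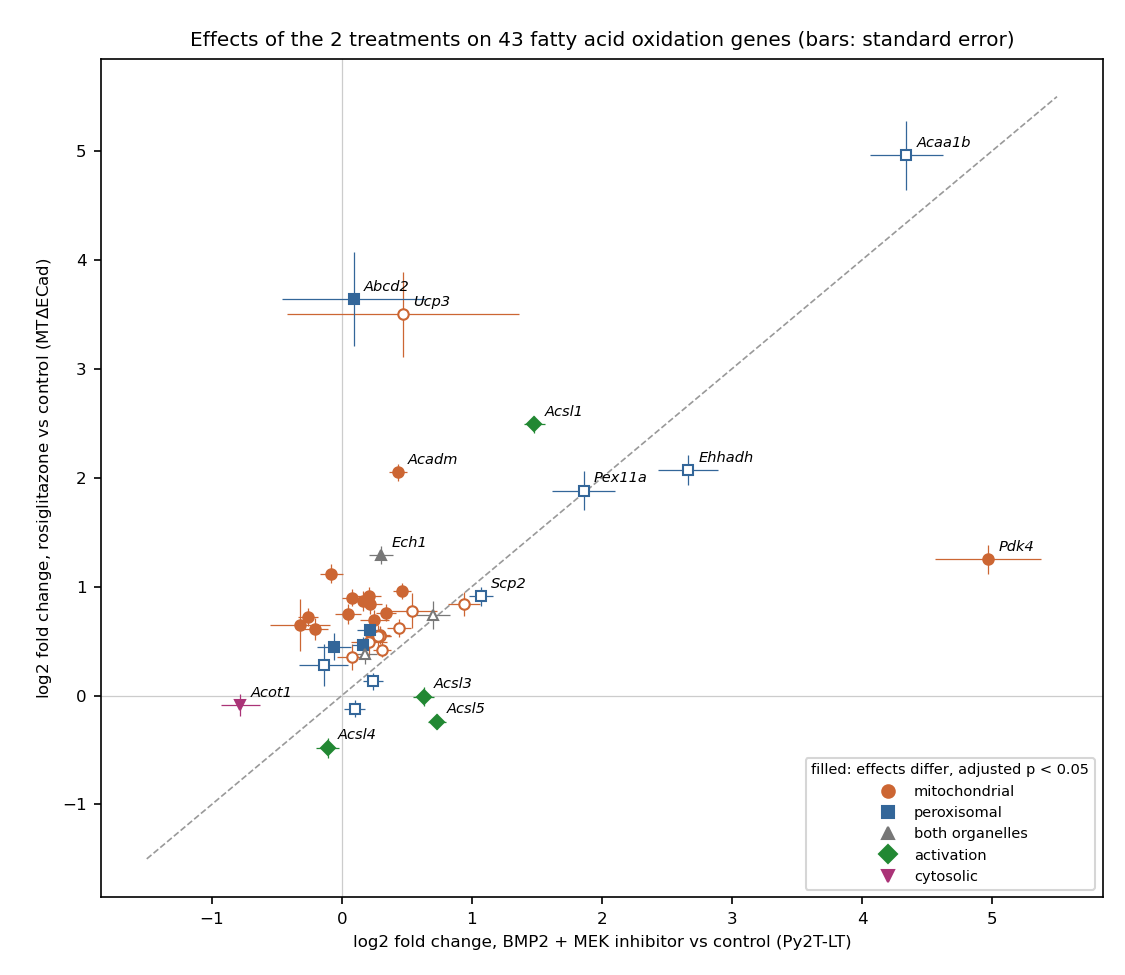
Log2 fold change with BMP2 plus MEK inhibitor in Py2T-LT cells (x axis) and with rosiglitazone in MTΔECad cells (y axis) for the 43 genes, with standard errors, filled where the difference of the effects had an adjusted p under 0.05. Acaa1b, Ehhadh, Pex11a and Scp2 lie near the line of equal effect with open symbols, Acadm and Acsl1 above it, and Pdk4, at 4.97 and 1.25, below it.

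Other genes of the same pathways, listed by function and not part of the 43, moved in part with them. With rosiglitazone, where 7.95% of all genes rose and 5.26% fell, 8 of 16 tested genes of mitochondrial oxidation rose and 1 fell (median 0.38), 10 of 20 of peroxisomal oxidation rose (median 0.29), 8 of 15 peroxins, the proteins that build peroxisomes, rose (median 0.52), and 6 of 17 general mitochondrial genes rose (median 0.20). Cat, the catalase that removes hydrogen peroxide, rose with rosiglitazone by 1.38 on the log2 scale, the peroxin gene Pex16 by 1.36, Amacr, the racemase of branched chains, by 1.21 and Cs, the citrate synthase, by 1.03. Ephx2, a lipid epoxide hydrolase found in peroxisomes and cytosol, stood at 0.418 and 0.626 in MTΔECad controls and 70 and 62.4 with rosiglitazone, a log2 fold change of 6.95 ± 0.19 (adjusted p = 3.3e-16).

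With BMP2 plus MEK inhibitor the same lists gave 6 risen and 2 fallen of 16, 8 risen and 4 fallen of 20, 8 risen of 15 and 1 risen and 5 fallen of 17, beside 19.1% risen and 19.4% fallen over all genes. The medians were 0.19, 0.26, 0.35 and -0.10. Ephx2 rose by 3.46 there, and Acox2, an oxidase of branched chains and bile acid intermediates, fell by 1.25 with the combination and rose by 1.36 with rosiglitazone. Bdh1, which interconverts ketone bodies, fell by 1.61 ± 0.59 with the combination (adjusted p = 0.036). With the MEK inhibitor alone, where 8.98% of all genes rose, the lists had medians of 0.08, 0.12, 0.05 and 0.07, and Ephx2 rose by 2.36.

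Of 8 regulators 4 rose and 2 fell with the MEK inhibitor, 3 rose with the combination and 4 rose with rosiglitazone. Beside them 8.98% of all genes rose and 7.52% fell with the MEK inhibitor, 19.1% rose with the combination and 7.95% with rosiglitazone. Pparg, the receptor for rosiglitazone, stood at 3.14 and 3.94 in Py2T-LT controls, 12 and 13.9 with the MEK inhibitor, 25 and 25.1 with the combination, 68.8 and 67.3 in MTΔECad controls and 63.2 and 61.8 with rosiglitazone. It rose in Py2T-LT cells by 1.87 ± 0.15 (adjusted p = 9.0e-09) and 2.82 ± 0.14 (adjusted p = 6.6e-13), and rosiglitazone gave -0.12 ± 0.09 (adjusted p = 0.5). Ppara, the receptor known for control of fatty acid oxidation in liver, had 0 counts in both Py2T-LT controls and reached 1.62 and 0.767 with the MEK inhibitor and 3.62 and 2.62 with the combination. Against a floor of 3 counts per library that is at least 6.4-fold and at least 16.7-fold higher. In MTΔECad cells Ppara stayed at 0.0696 to 0.344. It passed the filter on low counts only through treated Py2T-LT libraries. Its rises, counted above with the MEK inhibitor and the combination, are therefore values and not tests. The coactivator genes Ppargc1a and Ppargc1b rose with rosiglitazone by 1.33 ± 0.15 (adjusted p = 1.5e-06) and 1.29 ± 0.17 (adjusted p = 1.4e-05). Rxra rose with the combination by 1.40 ± 0.08 (adjusted p = 1.2e-11), to 180 and 193 from 71.6 and 69.5 in the controls. Its libraries were also above the controls with the MEK inhibitor alone, at 99 and 95.4. With rosiglitazone they stood at 127 and 116, against 72.3 and 65.5 in MTΔECad controls.

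Most adipocyte markers rose with each treatment, but not in step with the set. With the MEK inhibitor their median log2 fold change was 5.39, against 0.13 for the 43 genes. Over all genes 8.98% rose with the MEK inhibitor, 19.1% with the combination and 7.95% with rosiglitazone. Of 8 markers 7 rose with the MEK inhibitor, 7 with the combination and 5 with rosiglitazone, Lep being at 0 in every Py2T-LT library. Their summed level was 560 to 574 CPM in Py2T-LT controls, 893 to 913 with the MEK inhibitor, 1103 to 1287 with the combination, 1595 to 1734 in MTΔECad controls and 3603 to 3912 with rosiglitazone. Nearly all of the sum in both control groups was Lpl, a lipase gene singled out after its values were seen, at 571 and 553 in Py2T-LT and 1707 and 1572 in MTΔECad controls, so the sum does not order the groups by their other markers. Plin1, a lipid droplet gene, was at 0.418 and 0.313 in MTΔECad controls and 31.9 and 33.7 with the combination. Adipoq, the adiponectin gene, went from 0.0696 and 0 in MTΔECad controls to 102 and 90, and in Py2T-LT cells from 0.0616 and 0.5 to 26.1 and 22.8 with the MEK inhibitor and 20.9 and 21.6 with the combination. Adipoq, Plin1 and Slc2a4, another of the 8, were at 0 to 0.5 CPM in all control libraries. They passed the filter on low counts only through treated libraries. Their rises, where counted above, are therefore values and not tests, and they enter the median of 5.39. The part of adipocytes in the changes of the 43 genes was not tested.

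Over all genes 8.98% rose and 7.52% fell with the MEK inhibitor, 19.1% and 19.4% with the combination and 7.95% and 5.26% with rosiglitazone. Of 4 brown adipocyte markers, 3 were tested, and Ucp1 was at 0 to 0.329 CPM. With the MEK inhibitor 0 of these markers rose and 1 fell, with the combination 1 and 1, and with rosiglitazone 2 and 0. Their summed level was 602 to 645 CPM in Py2T-LT controls, 85.9 to 96.1 with the MEK inhibitor, 29.7 to 30.5 with the combination, 7.14 to 7.73 in MTΔECad controls and 16.3 to 20.1 with rosiglitazone. In the Py2T-LT controls that sum was mostly Dio2, a deiodinase gene at 581 and 625, which stood at 9.58 and 8.72 with the combination. Cidea, another of the 4, went the other way, from 0 counts in the controls to 1.47 and 1.16. That is at least 7.08-fold above a floor of 3 counts per library. Cidea passed the filter on low counts only through treated libraries. Its rises, counted above with the combination and with rosiglitazone, are therefore values and not tests. Dio2 and Cidea were singled out after their values were seen, and the part of such cells was not tested. Epithelial markers fell with the combination in 3 of 5 genes (summed 216 to 233 CPM, from 627 to 677 in the controls) and rose with rosiglitazone in 3 of 5 (360 to 393 from 273 to 285), and their part was not tested. Markers of hepatocytes, muscle and endothelium with a row summed to at most 0.646 CPM in any library, and those of blood cells to 2.85 to 8.21 CPM. Of 6 mesenchymal markers 1 rose and 1 fell with either Py2T-LT treatment.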

How the data were processed

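Total RNA of 2 independent experiments per group was made into stranded total RNA libraries and sequenced on an Illumina HiSeq instrument, per the labels' protocols, which also speak of poly-A RNA. The authors deposited whole-number read counts per NCBI gene identifier, without normalization as far as the values show. Reads were aligned with STAR to mm10, per the submitters' processing notes. How reads were counted, on which strand, with which annotation and with what rule for shared reads is not given in the sources used here, so overlapping and near-identical genes may be divided in an unknown way.

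Identifiers were matched to RefSeq GRCm38.p6 (18057 of 18103) and GENCODE M21 (3 more), and 43 unmatched identifiers with 0.763% of counts stayed unnamed in the tests. In edgeR 4.0.16 (R 4.3.3), filterByExpr kept 13149 genes, TMM factors ran from 0.936 to 1.06, and a robust quasi-likelihood model with 1 mean per group was fitted to all 10 libraries (5 residual degrees of freedom, common biological coefficient of variation 7.07%). The 6 contrasts were adjusted by Benjamini-Hochberg over all genes tested, at 0.05. The SE is the log2 fold change divided by the square root of F. RPKM is CPM per kilobase of the exon union in GENCODE M21. Where a group held under 10 counts, an exact 95% conditional counting interval of the ratio is given, and a floor of 3 counts per library (at most 0.209 CPM) where it held 0. Both cover counting error only. With 2 experiments a group, p-values reflect only the spread between replicates, pooled over all 5 groups and not that of the groups compared alone. Replicates differed by more than counting noise. The chi-square per gene was 16.8 in the Py2T-LT controls, the reference of several comparisons, and 5.39 to 7.7 in the other groups.

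Values in every library are given for members called with a log2 fold change of at least 1 in any of the 5 comparisons of groups (18 members) and for Cpt1a, Cpt2, Hadha, Acox3, Ehhadh and Pdk4, 21 in all. The other 22 are given by ranges and counts. The genes, their classes, the other lists and the motif were chosen with earlier results of these data known, so no list is independent support. Alternatives were RLE size factors, no low count filter, DESeq2 1.42.0, fitting only the groups compared, a replicate block, each library left out, other class memberships, leaving out near-identical pairs, and 1 letter off in the motif. The procedure was tested on simulated data. Protein sequences were not used here.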

Additional observations from a re-analysis of the deposited data

How the results depend on the processing

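Relative to the main count, the number of members called changed most with the MEK inhibitor. It fell from 11 to 5 with the MEK inhibitor without Py2T-LT control replicate 2, and the range over libraries left out was 5 to 12. The other ranges were 18 to 23 (main 23) for the combination against control, 15 to 22 (22) against the MEK inhibitor, 32 to 37 (37) for rosiglitazone, 28 to 34 (33) between the untreated lines and 18 to 23 (24) for the difference of effects. No fold change of a called member reversed. Called members that lost their call in at least 1 alternative numbered 6, 7, 10, 5, 6 and 7 in these 6 contrasts, and 3, 4, 0, 0, 2 and 3 uncalled members passed in one. Without Acot1, Acot2, Acaa1a and Acaa1b the peroxisomal median of the difference of effects was 0.02 in place of 0.30. A library left alone in its group is assumed to vary like the others.

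The replicate numbers did not pair the libraries: deviations of same-numbered libraries correlated at -0.106 to 0.1. With the replicate block, 12, 25, 22, 37, 33 and 24 members passed. Depth limits Ucp3, Abcd2, Pdk4 and Ppara, which lie near a few counts in several groups.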
